A study of Mus musculus with 20 samples.

Results

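The genes described here encode the proteins of the cytosolic ribosome, together with the paralogs that carry their names. They were chosen by symbol alone, as Rpl or Rps followed by a number, with Rplp0, Rplp1, Rplp2 and Rpsa, and without the pseudogenes marked -ps and the Rps6k kinases. The rule found 82 of the 15608 genes in the liver table and 85 of the 20738 genes in the table of epididymal white adipose tissue (eWAT). All 82 genes of the liver table were also in the eWAT table, which added Rpl10l, Rpl39l and Rps3a3. By symbol alone, 49 of the genes in liver were counted to the large subunit (Rpl) and 33 to the small one (Rps), and in eWAT 51 and 34 were.

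Messenger RNA was sequenced from male mice aged 2 months in 4 groups of 5 libraries each: eWAT of IR 4A mice, eWAT of WT mice, liver of IR 4A mice and liver of WT mice. IR 4A is a form of the insulin receptor changed in the motif by which it binds MAD2, a spindle checkpoint protein with a part in bringing the receptor into the cell, and the series asks what this does to metabolism. The labels give no strain, diet or treatment and no second allele, and they name no animal behind a library, so the p-values below measure only the spread between these libraries. A library held 13651874 to 21615358 counts in eWAT and 17989420 to 24238359 in liver, and no library was a copy of another. Values are given as CPM, counts brought to a common library size, after scaling of the libraries by the trimmed mean of M-values (TMM), separately for each tissue unless stated. Of the marker lists, all 10 hepatocyte genes were present in liver, with a summed level of 71830 to 84787 CPM in IR 4A and 67343 to 81181 CPM in WT libraries. All 10 adipocyte genes were present in eWAT, at 3170 to 19066 CPM in IR 4A and 10769 to 36023 CPM in WT libraries. The eWAT libraries also held all 14 genes of the epididymis epithelium list, and 13 of these, among them Crisp1, Lcn5 and Gpx5, were not in the liver table.

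A ribosome joins ribosomal RNA with a fixed set of proteins, each needed in about the same number of copies, so the genes of these proteins are usually expressed together. Many of their mRNAs start with a run of pyrimidines, the 5′ terminal oligopyrimidine (TOP) tract, through which the insulin and mTORC1 pathway controls their translation, with LARP1 bound to the tract when mTORC1 is low. Such control acts on the use of the mRNA and need not change its amount, which is what was measured here. In liver and fat these mRNAs are among the abundant housekeeping transcripts, while a few paralogs are known for expression in testis or striated muscle.

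The start regions of 6 members named below are shown, taken from RefSeq (build GRCm38.p6), each from 40 bases before the annotated start to 20 after it. Rpl38, Rpl41, Rpl28, Rpl37a and Rps28 passed the test of the difference between tissues given below, and the paralog Rpl7l1 did not. Rpl29, which also passed that test, was not among the members with a promoter here. Capitals mark a run of at least 8 pyrimidines that overlaps the window from 10 bases before to 20 after the start. The run was counted over its full length, also where it reached beyond the window. Rpl38 (chr11:114668540-114668599, plus strand) and Rpl28 (chr7:4792925-4792984, plus strand) held such a run. Rpl41 (chr10:128549149-128549208, minus strand), Rpl37a (chr1:72711220-72711279, plus strand), Rps28 (chr17:33824543-33824602, minus strand) and Rpl7l1 (chr17:46782637-46782696, minus strand) held none in this window. The window was placed by the annotated start, and where the mRNAs begin was not measured. Whether a member without such a run lacks a TOP tract was therefore not tested.
Rpl38: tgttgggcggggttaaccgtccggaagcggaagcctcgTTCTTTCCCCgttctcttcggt
Rpl28: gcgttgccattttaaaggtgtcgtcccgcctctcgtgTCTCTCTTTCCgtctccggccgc
Rpl41: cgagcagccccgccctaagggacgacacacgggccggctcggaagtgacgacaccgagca
Rpl37a: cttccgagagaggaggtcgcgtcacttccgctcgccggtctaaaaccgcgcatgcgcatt
Rps28: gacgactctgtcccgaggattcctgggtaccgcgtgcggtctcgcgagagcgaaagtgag
Rpl7l1: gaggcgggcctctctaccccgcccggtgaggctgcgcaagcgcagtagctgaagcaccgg
The promoter table held 63 of the 85 members, with 75 promoters. A run of at least 8 pyrimidines overlapping that window was found in 32 of the 75 member promoters (42.7%) and in 5536 of all 32851 promoters (16.9%). The letters CCGGAAG, on either strand of the 300-base promoter, stood in 27 member promoters (36.0%) and in 8.86% of all promoters. The letters TATAAA on the sense strand stood in 6 member promoters (8%) and in 8.32% of all. The members thus shared the pyrimidine run and CCGGAAG more often than promoters in general, and TATAAA about as often, as a description of these letters only.

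The levels of the members are given first. Per kilobase of transcript, the median member stood at 369 CPM in IR 4A and 282 CPM in WT libraries of eWAT (84 members with enough counts to be tested), and at 104 CPM in IR 4A and 112 CPM in WT libraries of liver (81 members). These levels used whole transcript lengths and understate the short transcripts, most of which this family has: the median length was 712.75 bases over the eWAT members and 2093 bases over all genes tested in eWAT. In eWAT the highest levels per kilobase were those of Rps24, Rplp0, Rpl23 and Rpl26. Rps24, a small subunit protein mutated in some human cases of Diamond-Blackfan anaemia, had 1140.3 ± 81.9 CPM per kilobase in IR 4A and 993 ± 79.3 in WT libraries (SD, n = 5 each). Rplp0, the base of the stalk that recruits elongation factors, had 1139 ± 108 CPM per kilobase in IR 4A and 902 ± 151 in WT libraries. Rpl23, a large subunit protein, had 1123 ± 95.3 CPM per kilobase in IR 4A and 911 ± 119.97 in WT libraries. The WT means of these 3 neighbours in the order differed by less than the SD of Rplp0 and of Rpl23. Rpl26, a protein at the exit of the peptide tunnel, followed with 954 ± 139.8 CPM per kilobase in IR 4A and 745 ± 107 in WT libraries.

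In liver the order was led by Rpl23, with 338 ± 17.6 CPM per kilobase in IR 4A and 329.7 ± 31.6 in WT libraries, and by Rps24, with 310.1 ± 25.9 CPM per kilobase in IR 4A and 308 ± 21.8 in WT libraries. Rpl13a, a large subunit protein, had 277 ± 17.9 CPM per kilobase in IR 4A and 305 ± 18.8 in WT libraries, and Rps2, at the mRNA entry channel of the small subunit, had 279 ± 19.6 CPM per kilobase in IR 4A and 303 ± 8.43 in WT libraries. The WT means of Rpl23, Rps24, Rpl13a and Rps2 lay within 1 SD of that of Rpl23. At the other end stood Rpl12, a stalk protein, with 4.19 ± 1.86 CPM per kilobase in IR 4A and 2.87 ± 0.464 in WT libraries, Rps27, a zinc-binding small subunit protein, with 6.56 ± 1.90 CPM per kilobase in IR 4A and 7.36 ± 3.24 in WT libraries, and Rpl5, which carries the 5S ribosomal RNA, with 10.7 ± 1.04 CPM per kilobase in IR 4A and 12.1 ± 2.86 in WT libraries. Rpl12 and Rps27 were low in eWAT as well. Rpl12 had 11.1 ± 0.441 CPM per kilobase in IR 4A and 10.7 ± 1.62 in WT libraries there, and Rps27 had 25.95 ± 3.16 CPM per kilobase in IR 4A and 19.9 ± 7.21 in WT libraries. Genes of this family have many near-identical copies among which Salmon divides reads, so the levels of single members are uncertain. The pseudogenes marked -ps, 29 in the eWAT table and 20 in the liver table, took 0.138% to 0.280% of the counts of an eWAT library and 0.0641% to 0.0741% of those of a liver library.

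As a family the members took 2.52% ± 0.267 of all counts in eWAT IR 4A and 1.99% ± 0.299 in eWAT WT libraries (SD, n = 5 each), against 0.757% ± 0.0266 in liver IR 4A and 0.715% ± 0.0285 in liver WT libraries. The 2 eWAT groups overlapped, since the lowest IR 4A library had 2.21% and the highest WT library 2.25%. The mean level of the 77 members other than paralogs was 7.95 ± 0.13 log2 CPM in eWAT IR 4A and 7.62 ± 0.19 in eWAT WT libraries, and 6.13 ± 0.05 in liver IR 4A and 6.21 ± 0.06 in liver WT libraries. In liver the 2 measures pointed in opposite directions: the share was higher in IR 4A and the scaled level lower. The liver IR 4A libraries had TMM factors of 1.03 to 1.10 and the WT libraries of 0.901 to 0.995, and with library totals alone the level was 6.21 ± 0.05 in IR 4A and 6.13 ± 0.05 in WT libraries.

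**Figure D1:**
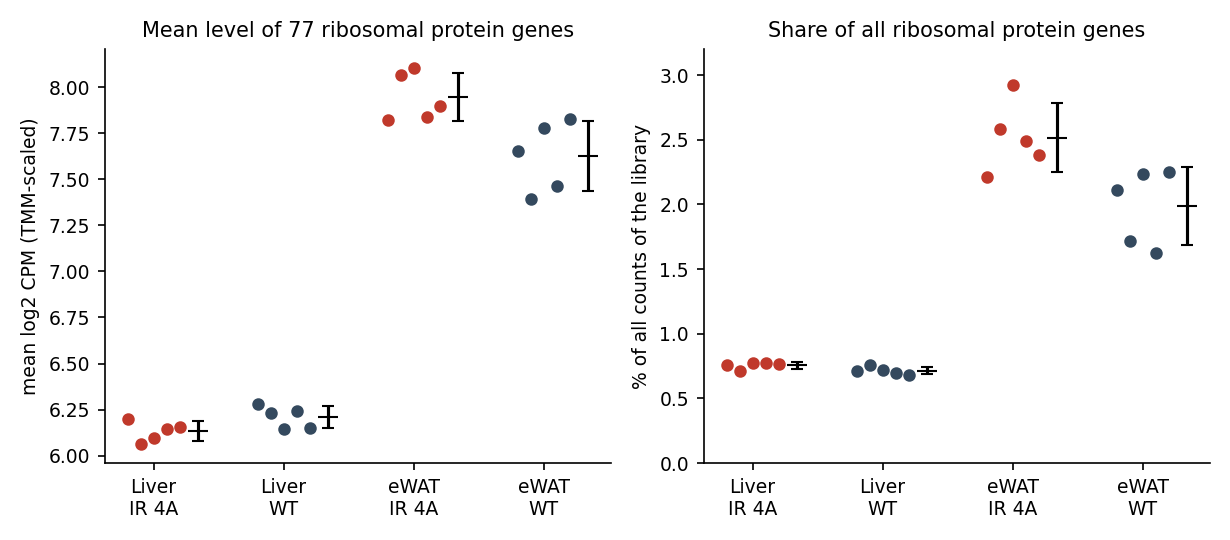
Left, mean log2 CPM of 77 ribosomal protein genes in each library (point), scaled within each tissue so that liver and eWAT are not on one scale; right, the percent of each library's counts that fell on all ribosomal protein genes. Black marks are the mean and SD of 5 libraries. The eWAT IR 4A libraries averaged 2.52% and the eWAT WT libraries 1.99%, with overlap, and the liver groups lay near 0.757% in IR 4A and 0.715% in WT libraries.

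Between tissues, the median of the family lay near that of all genes once all libraries were scaled together. A smaller share of members than of all genes was called in each direction with TMM and edgeR. For the higher direction this did not hold in every fit. In a fit of all 20 libraries with eWAT WT set against liver WT, 31 of 82 members, 37.8%, were higher in eWAT (background over 14696 genes 43.2%) and 9, 10.98%, were lower (background 33.9%), by edgeR's quasi-likelihood test at a Benjamini-Hochberg adjusted p under 0.05. The median member's log2 difference was 0.11, beside 0.19 for all genes. With library totals alone the median over all genes was 1.69 and that of the members 1.62, so relative to all genes the members stood at -0.08 under TMM and -0.07 under totals. Without eWAT WT 4 the counts were 17 higher and 17 lower, 20.7% of the members each, where 39.1% of all genes were higher and 38.1% lower. Without eWAT WT 5 they were 23 higher and 14 lower, 28.0% and 17.1% of the members, where 42.7% and 33.1% of all genes were. The share called higher was larger for members than for all genes by limma voom (53.7% against 43.2%) and without eWAT WT 2 (43.9% against 41.9%). It was also larger under upper-quartile scaling (61.0% against 52.0%) and under totals (97.6% against 82.8%). In these fits the share called lower stayed below that of all genes.

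Single members departed from this. In these jointly scaled libraries Rps27l, a paralog of Rps27 known as a p53 target, averaged 19.5 ± 1.69 CPM in eWAT WT libraries (range 18.4 to 22.5) and 70.4 ± 2.84 CPM in liver WT libraries (range 67.4 to 73.7). Its log2 difference was -1.85 (SE 0.08; adjusted p = 1.74e-13 by edgeR), and it was lower in eWAT under totals as well, at -0.35. Rpl7l1, a paralog of Rpl7 that acts in the assembly of the large subunit, averaged 22.8 ± 1.87 CPM in eWAT WT libraries (range 19.7 to 24.3) and 57.2 ± 6.53 CPM in liver WT libraries (range 48.2 to 64.5). Its log2 difference was -1.33 (SE 0.09; adjusted p = 1.59e-10 by edgeR), and 0.17 under totals, still below the 1.69 of all genes. Rps2 averaged 280.1 ± 45.3 CPM in eWAT WT libraries (range 208 to 322) and 507 ± 16.1 CPM in liver WT libraries (range 491 to 525), with a log2 difference of -0.86 (SE 0.11; adjusted p = 5.19e-07 by edgeR) and of 0.64 under totals. Rpl7a, a large subunit protein whose gene hosts small nucleolar RNAs, averaged 269.6 ± 22.3 CPM in eWAT WT libraries (range 244 to 302) and 381 ± 26.6 CPM in liver WT libraries (range 361 to 422), with -0.50 (SE 0.09; adjusted p = 3.01e-05 by edgeR) and 1.00 under totals. The eWAT and liver WT libraries did not overlap for any of these 4.

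On the higher side, Rps26, which touches the mRNA at the exit channel of the small subunit, averaged 299.99 ± 67.1 CPM in eWAT WT libraries (range 205 to 379.7) and 171 ± 26.3 CPM in liver WT libraries (range 151 to 215). Its log2 difference was 0.81 (SE 0.15; adjusted p = 6.40e-05 by edgeR), with overlap between the tissues. Rpl26 averaged 278 ± 42.6 CPM in eWAT WT libraries (range 203 to 308) and 185 ± 8.44 CPM in liver WT libraries (range 174 to 194), a log2 difference of 0.59 (SE 0.11; adjusted p = 1.20e-04 by edgeR), without overlap. Rps4l, a paralog of the X-linked Rps4x, averaged 20.1 ± 1.58 CPM in eWAT WT libraries (range 18.01 to 21.6) and 10.2 ± 4.43 CPM in liver WT libraries (range 5.96 to 17.7), a log2 difference of 0.98 (SE 0.25; adjusted p = 0.00174 by edgeR). Rpl3l, the striated muscle paralog of Rpl3, had 0 to 4 counts in a liver library, so no fold is given for it, and 14.7 ± 4.24 CPM in eWAT WT libraries.

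In eWAT the members tested had a higher fitted level in IR 4A than in WT libraries, except Rpl7l1, Rpl10l and Rpl39l, but none passed the test. By edgeR's quasi-likelihood test 0 of 84 members were called higher (background over 16476 genes 0%) and 0 were called lower (background 0.0121%) at an adjusted p under 0.05. At an unadjusted p under 0.05, 59 of 84 were higher (background 6.63%) and 0 lower (background 9.24%). A positive log2 fold change was seen in 81 of 84 (background 40.1%), with a median of 0.30, beside -0.08 over all genes. The IR 4A and WT libraries did not overlap for 18 members that were higher (background 2.52%) and for 0 that were lower (background 3.22%). DESeq2 on the same counts called 30 of 84 higher, 35.7% (background 3.17%), and 0 lower (background 4.13%). The limma voom fit with sample weights called 0 higher (background 0.109%). In the authors' deposited table, 7 members had an adjusted p under 0.05 with a higher level and 0 with a lower one, where 0.967% and 1.74% of all genes did. The direction of the median was the same under each scaling tried, from 0.30 to 0.39. Its distance from the median of all genes, 0.39, rested in part on 1 library: without eWAT WT 2 the median of all genes was 0.06 and the distance 0.24. That distance was 0.24 by limma voom.

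The large and small subunits did not separate: 38 of 51 large subunit genes and 21 of 33 small subunit genes were higher at an unadjusted p under 0.05, with median log2 fold changes of 0.30 in both. Among the large subunit genes, Rpl38, whose loss in mice alters the translation of Hox mRNAs, had 86.03, 109, 109.6, 88.7 and 98.1 CPM in the eWAT IR 4A libraries, against 74.6, 66.2, 84.8, 58.8 and 81.4 CPM in the eWAT WT libraries. All 5 IR 4A libraries were above all 5 WT libraries, with a log2 fold change of 0.43 (SE 0.12; adjusted p = 0.209 by edgeR). Rpl39, which lines the peptide tunnel, had 117, 141, 145, 96.3 and 124 CPM in the eWAT IR 4A libraries, against 93.2, 73.3, 104, 79.6 and 96.03 CPM in the eWAT WT libraries. IR 4A 4 lay among the WT libraries, and the log2 fold change was 0.48 (SE 0.14; adjusted p = 0.211 by edgeR). Rpl28 had 153, 182, 194, 165 and 154 CPM in the eWAT IR 4A libraries, against 124, 124, 141, 130.3 and 156 CPM in the eWAT WT libraries. The lowest IR 4A libraries, 1 and 5, lay below WT 5, and the log2 fold change was 0.33 (SE 0.10; adjusted p = 0.221 by edgeR).

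Of the small subunit, Rps23, a protein of the decoding site, had 165, 189.9, 195, 169 and 176 CPM in the eWAT IR 4A libraries, against 157, 132, 143, 132 and 161 CPM in the eWAT WT libraries. The groups did not overlap, and the log2 fold change was 0.30 (SE 0.09; adjusted p = 0.211 by edgeR). Among the most abundant members, Rplp0 had 857, 1063, 1067, 965 and 912 CPM in the eWAT IR 4A libraries, against 789, 655, 879, 621 and 906 CPM in the eWAT WT libraries, and Rps24 had 576, 644, 639, 543 and 591 CPM in the eWAT IR 4A libraries, against 520.4, 564, 529, 453 and 539 CPM in the eWAT WT libraries. For both, IR 4A 2 and 3 were the highest libraries and the groups overlapped, with log2 fold changes of 0.34 (SE 0.14) and 0.20 (SE 0.09). The other 2 members with the highest levels per kilobase, Rpl23 and Rpl26, had 782 ± 66.4 CPM in IR 4A and 634 ± 83.6 CPM in WT libraries and 539.97 ± 79.1 CPM in IR 4A and 422 ± 60.3 CPM in WT libraries. Their log2 fold changes were 0.30 (SE 0.12) and 0.36 (SE 0.14). Rpl12 stood apart among the low members, with 13.5, 14.1, 14.6, 13.9 and 13.1 CPM in the eWAT IR 4A libraries, against 13.7, 11.3, 15.3, 15.1 and 11.2 CPM in the eWAT WT libraries and a log2 fold change of 0.05 (SE 0.12), while Rps27 and Rpl5 had 0.38 (SE 0.25) and 0.26 (SE 0.11).

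How many members had an unadjusted p under 0.05 depended on single libraries: 33 without IR 4A 2 and 38 without IR 4A 3, while the median log2 fold change ranged from 0.26 to 0.36 when each library was left out in turn. Several other measures were placed higher or lower in IR 4A in the same eWAT libraries, some with overlap between the groups. The summed epididymis markers were at 34807 to 48213 CPM in IR 4A and 5566 to 40549 CPM in WT libraries, with 14 of 14 higher in IR 4A and 0 called. The adipocyte list had 10 of 10 lower in IR 4A. The fibroblast and progenitor list had 8 of 8 lower (679 to 2125 CPM in IR 4A and 2656 to 6643 CPM in WT libraries), and the macrophage list 9 of 9 (156 to 358 CPM in IR 4A and 451 to 1361 CPM in WT libraries), with 0 called in each. The endothelium list had 8 of 8 lower (182 to 668 CPM in IR 4A and 448 to 1335 CPM in WT libraries). The genes lower in IR 4A were 6 of 8 in the mesothelium list and 8 of 8 in the B cell list. They were 5 of 5 in the erythroid list and 12 of 12 in the testis germ cell list, again with 0 called. Of all genes tested in eWAT, 9864 of 16476 were negative. The sums overlapped for B cells (21.8 to 128 CPM in IR 4A, 63.6 to 196 CPM in WT libraries) and erythroid cells (53.4 to 351 CPM and 69.3 to 421 CPM). The testis sums overlapped too (215 to 3679 CPM in IR 4A, 244 to 8032 CPM in WT libraries). The highest of these was WT 2, and WT 1 had 2470 CPM. In bulk tissue, fewer cells of a type and less RNA per cell cannot be told apart. With the epididymis marker level as a covariate 34 members were higher at an unadjusted p under 0.05 and the median log2 fold change was 0.25. Without the 4 libraries highest in testis markers, with 3 libraries left in each group, these were 6 and 0.23, and the distance from the median of all genes was also 0.23. Short transcripts in general also differed: in eWAT the median log2 fold change of genes other than members was 0.05 for transcripts of up to 500 bases and -0.17 for those over 4000 bases. With the trend in length removed, 29 members were higher at an unadjusted p under 0.05, with a median log2 fold change of 0.25. Beyond these fits, the part of other cell types and of transcript length in the result was not tested.

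**Figure D2:**
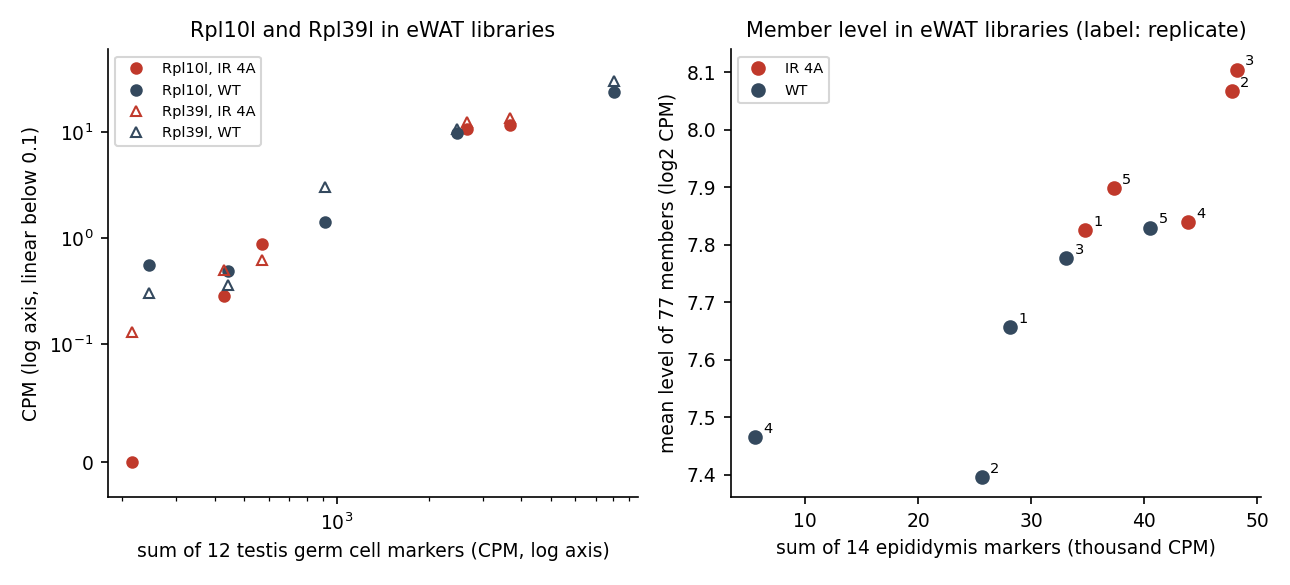
Left, CPM of Rpl10l and Rpl39l in each eWAT library against the summed CPM of 12 testis germ cell markers; both paralogs are highest in the 4 libraries with the highest testis marker sums, 2470 to 8032 CPM. Right, mean log2 CPM of 77 ribosomal protein genes against the summed level of 14 epididymis markers in the same libraries, with replicate numbers. The marker sum runs from 34807 to 48213 CPM in IR 4A and from 5566 to 40549 CPM in WT libraries. IR 4A 2 and 3 are highest in both measures, and WT 1, 2 and 4 are lowest in both.

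In liver no member passed the test either, and the direction of the family rested on the scaling. By edgeR's quasi-likelihood test 0 of 81 members were called higher (background over 12421 genes 0%) and 0 lower (background 0.00805%), while at an unadjusted p under 0.05 0 were higher (background 8.6%) and 12 lower, 14.8% of the members (background 9.48%). A negative log2 fold change was seen in 63 of 81 members (background 49%) with a median of -0.08 under TMM, whereas with library totals alone 63 of 81 were positive, with a median of 0.08 and 1 member called higher, 1.23% of the members where 3.01% of all genes were. The scaling moved the median of all genes as well, which was 0.16 under totals and 0.00 under TMM, and relative to all genes the members stood at -0.08 under both. For 7 members that were lower under TMM the groups did not overlap (background 1.83%), and this was so for 0 that were higher (background 1.68%). DESeq2 called 5 of 81 lower, 6.17% (background 2%), and 0 higher (background 1.63%). The limma voom fit called 0 (background 0.0161% in each direction). The authors' deposited table held 1 with an adjusted p under 0.05, Rpl41 with a log2 fold change of -0.33. Of all genes in the authors' deposited table, 1.33% were lower, so this count is near the background.

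The lowest p in liver was that of Rpl41, the shortest ribosomal protein. Rpl41 had 86.9, 78.04, 89.8, 90.5 and 83.6 CPM in the liver IR 4A libraries, against 119, 103, 104, 106 and 99.8 CPM in the liver WT libraries. The groups did not overlap, with a log2 fold change of -0.31 (SE 0.07; adjusted p = 0.115 by edgeR) and of -0.15 under library totals. Rpl38 had 27.2, 27.02, 26.8, 28.5 and 27.9 CPM in the liver IR 4A libraries, against 34.5, 33.4, 31.2, 32.8 and 30.4 CPM in the liver WT libraries. All IR 4A libraries lay below all WT libraries, with a log2 fold change of -0.24 (SE 0.06; adjusted p = 0.127 by edgeR), and -0.08 under totals. Rpl29, a large subunit protein also found at the cell surface, had 83.7, 78.5, 80.7, 82.2 and 85.6 CPM in the liver IR 4A libraries, against 102, 104, 86.3, 92.8 and 97.8 CPM in the liver WT libraries. Here too the groups did not overlap, with a log2 fold change of -0.23 (SE 0.07; adjusted p = 0.148 by edgeR), and -0.08 under totals.

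Rps10, a protein of the small subunit head, had 69.9, 65.2, 64.2, 64.4 and 68.1 CPM in the liver IR 4A libraries, against 76.7, 79.8, 74.8, 73.6 and 74.2 CPM in the liver WT libraries. The groups were apart, with a log2 fold change of -0.19 (SE 0.06; adjusted p = 0.155 by edgeR), and -0.04 under totals. Of the 4 members with the highest levels per kilobase, Rpl23 and Rps24 differed between the groups by less than 1 SD: Rpl23 had 236 ± 12.2 CPM in IR 4A and 229.6 ± 21.99 CPM in WT libraries, and Rps24 had 163 ± 13.6 CPM in IR 4A and 162 ± 11.4 CPM in WT libraries. Rpl13a had 137 ± 8.87 CPM in IR 4A and 151 ± 9.29 CPM in WT libraries, and Rps2 had 283 ± 19.9 CPM in IR 4A and 308 ± 8.56 CPM in WT libraries. Their log2 fold changes were 0.04 (SE 0.08) for Rpl23, 0.0084 (SE 0.08) for Rps24, -0.14 (SE 0.07) for Rpl13a and -0.12 (SE 0.07) for Rps2. Rpl12 had the highest log2 fold change of the liver members, 0.55 (SE 0.26), and IR 4A 1 was its highest library, with 8.97, 4.72, 3.54, 5.56 and 3.22 CPM in the liver IR 4A libraries, against 3.42, 3.26, 2.90, 4.38 and 3.89 CPM in the liver WT libraries. Rps27 had -0.17 (SE 0.30) and Rpl5 -0.17 (SE 0.14). The liver libraries held 1 of the 14 epididymis markers, at no more than 0.987 CPM, so those markers were close to 0 there. Markers of several other cell types were placed higher in the liver IR 4A libraries under TMM, with 0 called in each list. The endothelium list had 8 of 8 higher (36.4 to 81.8 CPM in IR 4A and 34.7 to 91.9 CPM in WT libraries). The fibroblast and progenitor list had 7 of 7 higher (95.1 to 157 CPM in IR 4A and 73.7 to 130.001 CPM in WT libraries). The macrophage list had 8 of 10 higher (87.5 to 293 CPM in IR 4A and 123 to 213 CPM in WT libraries). The adipocyte list had 4 of 5 tested higher (138 to 176 CPM in IR 4A and 106 to 160.2 CPM in WT libraries). The summed B cell markers, 3 of 4 tested higher, did not overlap between the groups, at 6.01 to 12.9 CPM in IR 4A and 4.54 to 5.92 CPM in WT libraries. The part of these cell types in the liver values was not tested. Genes other than members with transcripts of up to 500 bases had a median log2 fold change of -0.05 in liver under TMM, and those over 4000 bases 0.04. With the trend in length removed the members' liver median was -0.07, and the part of length was not tested further.

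**Figure D3:**
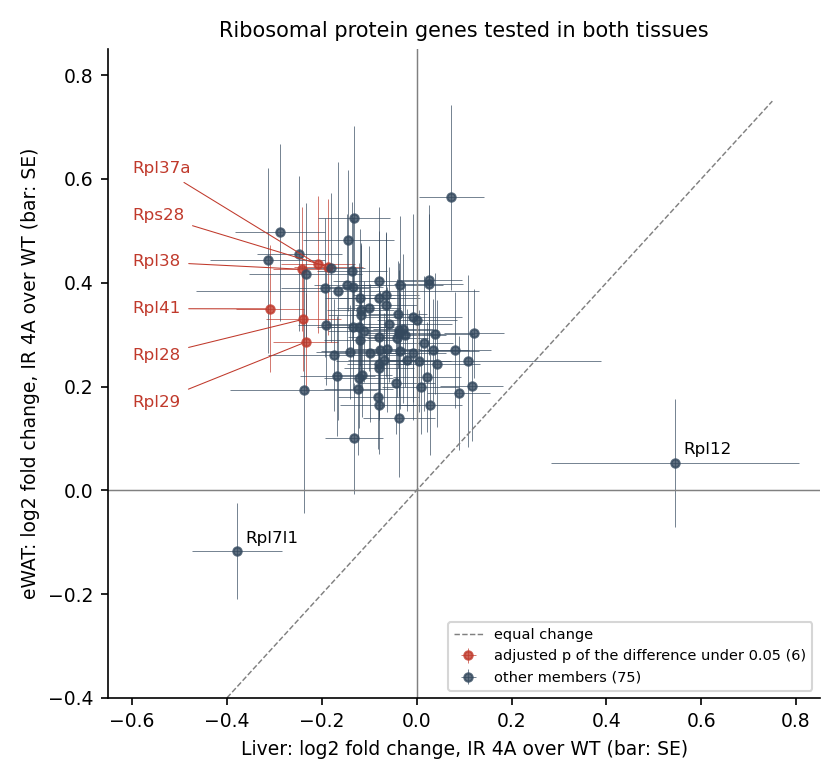
Log2 fold change of IR 4A over WT in liver (horizontal) and in eWAT (vertical) for the 81 ribosomal protein genes tested in each tissue's own fit, TMM-scaled, with bars of 1 SE; the dashed line marks equal change. Nearly all points lie above the line, with medians of 0.30 in eWAT and -0.08 in liver, the liver value being 0.08 with library totals alone; the 6 members in red passed the test of the difference between tissues.

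The change between genotypes differed between the tissues for 6 of the 82 members in the joint fit, which tests Rpl3l too (background over 14696 genes 0.735%), all with a higher value in eWAT, and for 0 in the other direction (background 1.67%). This was tested as the tissue-by-genotype term of a model with all 20 libraries (edgeR's quasi-likelihood test, adjusted p under 0.05). It is given as the eWAT change minus the liver change. The model used a shared estimate of the spread for both tissues, though the biological coefficient of variation was 0.512 in eWAT and 0.187 in liver. It treated all libraries as independent, and the labels do not say whether liver and eWAT libraries came from the same mice. The 6 were Rpl38, Rpl41, Rpl29, Rpl28, Rpl37a and Rps28. A positive difference was seen in 81 of 82 (background 39.2%), with a median of 0.36, beside -0.12 over all genes, and 50 had an unadjusted p under 0.05 with a higher value in eWAT (background 7.51%). The exception in sign was Rpl12. DESeq2 called 36 (background 4.1%) and limma voom 14 (background 1.74%), each with a higher value in eWAT. With library totals alone 1 was called, 1.22% of the members (background 0.476%), and the median was 0.29.

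Rpl38, given above in both tissues, had the smallest p, with a difference of 0.65 (SE 0.14; adjusted p = 0.0267 by edgeR). The differences of Rpl41 and Rpl29 were 0.64 (SE 0.15; adjusted p = 0.0356 by edgeR) and 0.50 (SE 0.12; adjusted p = 0.0391 by edgeR). Rpl41 had 417, 537, 544, 438 and 445 CPM in the eWAT IR 4A libraries, against 383, 341, 410.2, 309 and 425 CPM in the eWAT WT libraries, and Rpl29 had 269, 285, 292, 259 and 252 CPM in the eWAT IR 4A libraries, against 226, 190.4, 235, 205 and 256 CPM in the eWAT WT libraries. The eWAT groups overlapped for both while the liver groups did not. Rpl28 had 59.95, 51.5, 60.9, 59.1 and 58.1 CPM in the liver IR 4A libraries, against 73.02, 76.97, 66.2, 61.5 and 64.1 CPM in the liver WT libraries. Its liver groups did not overlap either, and its difference was 0.55 (SE 0.13; adjusted p = 0.0391 by edgeR).

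Rpl37a, a zinc-binding protein of the large subunit, had 127, 154, 155, 119 and 123 CPM in the eWAT IR 4A libraries, against 103, 76.4, 114, 93.5 and 114 CPM in the eWAT WT libraries. It had 40.1, 33.4, 39.99, 33.7 and 37.4 CPM in the liver IR 4A libraries, against 46.3, 43.7, 41.9, 43.2 and 38.5 CPM in the liver WT libraries. The groups were apart in eWAT and overlapped in liver through WT 5, and the difference was 0.63 (SE 0.16; adjusted p = 0.0432 by edgeR). Rps28, the small subunit protein among the 6, had 141, 157, 173, 150.4 and 146 CPM in the eWAT IR 4A libraries, against 109.7, 96.8, 133, 90.2 and 139.7 CPM in the eWAT WT libraries. It had 34.04, 31.9, 33.5, 35.01 and 33.6 CPM in the liver IR 4A libraries, against 43.5, 39.8, 34.8, 37.1 and 36.1 CPM in the liver WT libraries. Its eWAT groups were apart and its liver groups overlapped through WT 3, with a difference of 0.60 (SE 0.16; adjusted p = 0.0494 by edgeR). Just outside the threshold stood Rps10 with 0.49 (SE 0.13; adjusted p = 0.0513 by edgeR) and Rplp1, a stalk protein, with 0.69 (SE 0.18; adjusted p = 0.0523 by edgeR).

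The number called was set by single libraries: it was 0 without liver IR 4A 3, liver IR 4A 4, eWAT IR 4A 2 or eWAT IR 4A 3, and 1 without liver WT 1, liver IR 4A 2, liver IR 4A 5 or eWAT IR 4A 4. It was 2 without liver WT 2 or eWAT WT 1, 3 without liver WT 3, 10 without liver IR 4A 1 or eWAT IR 4A 1, and 21 without eWAT WT 5. The number called over all genes varied in the same fits: with a higher value in eWAT it was 10 without liver IR 4A 4, 15 without liver IR 4A 3, 14 without eWAT IR 4A 3, 22 without eWAT IR 4A 2, 230 without liver IR 4A 1 and 297 without eWAT WT 5, beside 108 with all libraries. The median difference of the members stayed between 0.30 and 0.43 when each library was left out in turn.

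**Figure D4:**
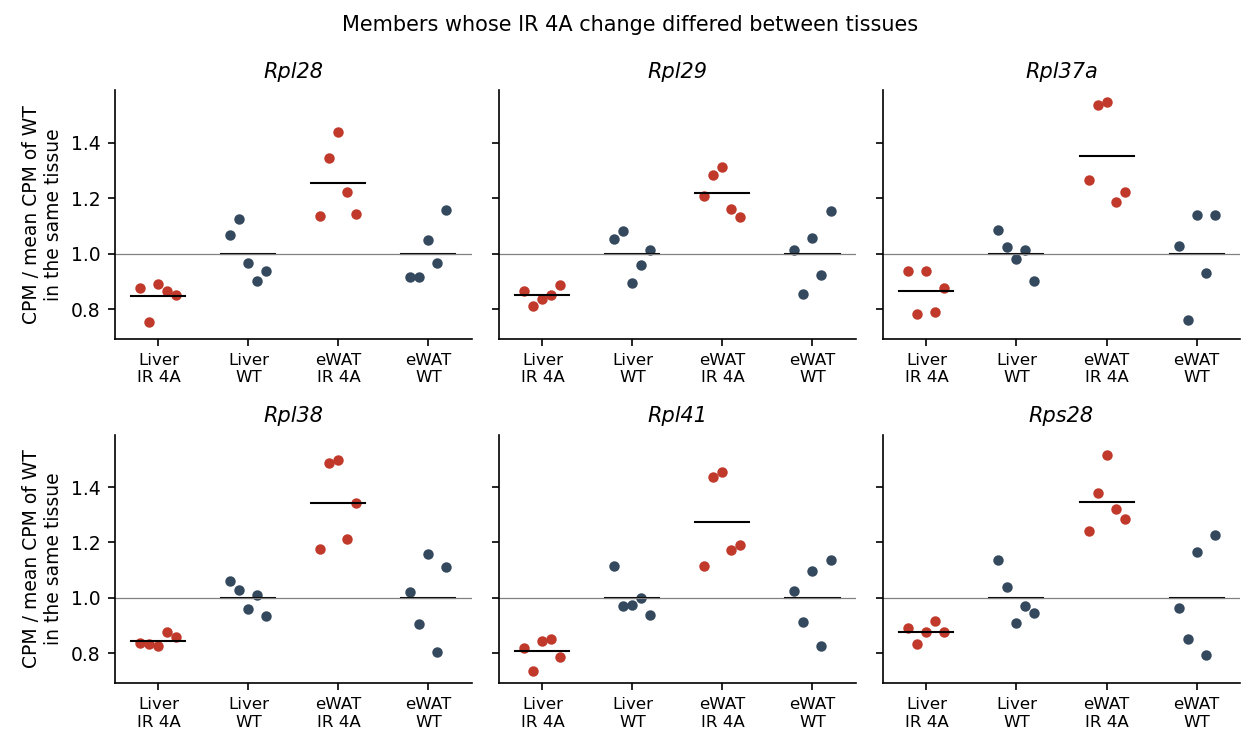
CPM of the 6 ribosomal protein genes that passed the test of the difference between tissues, in each library (point), divided by the mean CPM of the WT libraries of the same tissue; short lines are group means. In each panel the eWAT IR 4A mean lies above the eWAT WT mean and the liver IR 4A mean below the liver WT mean, with TMM scaling.

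The 77 members other than paralogs moved together from library to library in eWAT far more than in liver. Over these 77, the shift common to a library took 77.9% of the variance about each gene's mean in eWAT and 21.0% in liver. With the paralogs included, it took 20.96% over 84 members in eWAT and 17.2% over 81 members in liver. The mitochondrial ribosomal protein genes, 78 in number, had 15.1% in eWAT and 14.6% in liver, so the difference between tissues was not seen in that list. Other lists went in either direction. The share was higher in eWAT than in liver for small nucleolar RNA host transcripts (47.4% against 31.8%) and the mTORC1 pathway and Myc list (18.1% against 5.01%). It was lower for ribosome biogenesis factors (6.16% against 44.4%) and initiation factors (9.08% against 20.2%), among others. In eWAT IR 4A 1 to 5, 35, 77, 77, 52 and 71 of the 77 members lay above their own median over the 10 libraries, against 1, 2, 20, 2 and 48 in eWAT WT 1 to 5. All members were thus above their median in eWAT IR 4A 2 and 3, and nearly all below it in eWAT WT 1, 2 and 4. In liver IR 4A 1 to 5 the counts were 49, 7, 18, 33 and 36, against 58, 54, 38, 61 and 31 in liver WT 1 to 5. The SD of the library means on the log2 scale was 0.23 in eWAT and 0.07 in liver over all libraries of the tissue. Within a genotype it was 0.16 in eWAT and 0.06 in liver. The common movement in eWAT thus lay both between the genotypes and between libraries of the same genotype. The members share library and scaling, and these shares are a description. Of the eWAT libraries, IR 4A 2 and 3 also had the highest epididymis marker sums, 47734 and 48213 CPM. WT 1, 2 and 4 had the lowest, 28109, 25656 and 5566 CPM. The order was not the same throughout: the sum was lowest in WT 4, while the member level was lowest in WT 2. That level was 7.40 log2 CPM in WT 2 and 7.46 in WT 4. The part of the epididymis markers in the common movement was not tested.

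**Figure D5:**
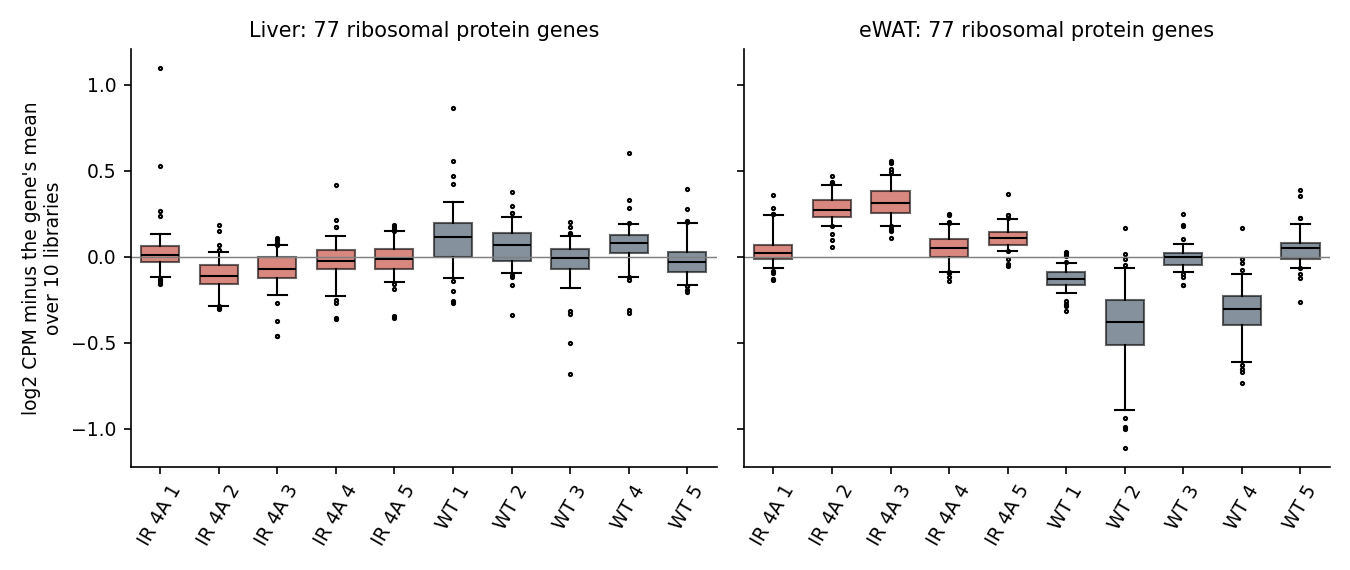
Log2 CPM of each of 77 ribosomal protein genes minus its mean over the 10 libraries of a tissue, as a box per library (line: median; box: quartiles; whiskers: 5th to 95th percentile; points: genes beyond), IR 4A in red and WT in grey. In eWAT whole boxes shift, with medians from -0.38 in WT 2 to 0.31 in IR 4A 3, while in liver the medians stay between -0.11 and 0.11.

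The paralogs behaved less alike. Rpl3l had the smallest p of the members in eWAT, with 32.7, 52.6, 46.1, 43.02 and 32.7 CPM in the eWAT IR 4A libraries, against 22.1, 20.7, 23.7, 13.6 and 31.2 CPM in the eWAT WT libraries. Every IR 4A library was above every WT library, with a log2 fold change of 0.90 (SE 0.22; adjusted p = 0.186 by edgeR), and the authors' deposited table gave it 0.88 with an adjusted p of 0.00847. The skeletal muscle markers in the eWAT table, 7 of 8, summed to 8.04 to 79.6 CPM in IR 4A and 9.40 to 45.5 CPM in WT libraries. IR 4A 2, 3 and 4, highest in Rpl3l, had muscle sums of 8.19, 9.24 and 8.04 CPM. Their epididymis sums, 47734, 48213 and 43885 CPM, were the highest, and WT 4, lowest in Rpl3l, had the lowest, 5566 CPM. WT 5, at 40549 CPM, lay above IR 4A 1 and 5 in this sum and below them in Rpl3l. The part of the muscle markers in the level of Rpl3l was not tested, nor that of the epididymis markers beyond the covariate fit. Rpl10l, which stands in for Rpl10 in male germ cells, had 0.287, 0.887, 10.6, 11.5 and 0 CPM in the eWAT IR 4A libraries, against 9.75, 23.6, 1.43, 0.554 and 0.485 CPM in the eWAT WT libraries. Rpl39l, the germ cell paralog of Rpl39, had 0.501, 0.614, 12.3, 13.4 and 0.131 CPM in the eWAT IR 4A libraries, against 10.7, 30.4, 3.01, 0.302 and 0.364 CPM in the eWAT WT libraries. Both were highest in the same 4 libraries, WT 1, WT 2, IR 4A 3 and IR 4A 4, in which the 12 testis germ cell markers summed to 2657 and 3679 CPM in IR 4A 3 and 4 and to 2470 and 8032 CPM in WT 1 and 2, against 215 to 915 CPM in the others. Their log2 fold changes were -0.62 (SE 1.46) and -0.72 (SE 1.45), and without WT 2 they were 0.66 and 0.64. In liver neither gene was in the table, nor were 10 of the 12 testis markers.

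Rpl7l1 was the paralog with a negative log2 fold change in both tissues, below zero under each scaling tried. It had 31.3, 25.7, 25.9, 24.4 and 26.2 CPM in the liver IR 4A libraries, against 37.4, 29.3, 32.4, 35.7 and 38.9 CPM in the liver WT libraries. The liver groups overlapped through IR 4A 1 and WT 2, with a log2 fold change of -0.38 (SE 0.10; adjusted p = 0.125 by edgeR). It had 29.4, 35.4, 34.2, 30.96 and 29.9 CPM in the eWAT IR 4A libraries, against 33.8, 29.8, 35.5, 37.3 and 36.9 CPM in the eWAT WT libraries, with -0.12 (SE 0.09; adjusted p = 0.557 by edgeR) and overlap. Rps27l had 38.9, 37.8, 37.2, 39.3 and 41.8 CPM in the liver IR 4A libraries, against 44.4, 44.4, 40.7, 43.01 and 41.3 CPM in the liver WT libraries. It had 31.4, 38.8, 31.5, 27.5 and 30.1 CPM in the eWAT IR 4A libraries, against 28.1, 34.03, 27.8, 28.99 and 29.7 CPM in the eWAT WT libraries, and its log2 fold changes were 0.10 (SE 0.11) in eWAT and -0.13 (SE 0.06) in liver, 0.03 there under totals. Its groups overlapped in both tissues.

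Rpl22l1, the paralog of Rpl22, had 14.6, 19.04, 18.5, 15.7 and 14.96 CPM in the eWAT IR 4A libraries, against 14.3, 12.6, 14.7, 13.8 and 13.3 CPM in the eWAT WT libraries, with a log2 fold change of 0.27 (SE 0.11; adjusted p = 0.292 by edgeR). It had 9.19, 6.53, 6.88, 5.14 and 7.96 CPM in the liver IR 4A libraries, against 5.78, 6.74, 8.50, 8.70 and 6.87 CPM in the liver WT libraries, with -0.04 (SE 0.17) and a sign that changed under totals. Rps4l had 36.3, 27.8, 50.8, 39.1 and 27.8 CPM in the eWAT IR 4A libraries, against 31.96, 32.8, 28.5, 28.1 and 31.5 CPM in the eWAT WT libraries, with 0.25 (SE 0.17). It had 4.19, 5.27, 9.07, 6.74 and 8.17 CPM in the liver IR 4A libraries, against 3.59, 10.8, 5.45, 5.55 and 5.68 CPM in the liver WT libraries, with 0.11 (SE 0.28), and WT 2 was its highest library. Neither gene passed the test in a tissue. Rps3a3, a copy of Rps3a1, had at most 4 counts in an eWAT library and was not tested.

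Other genes of the translation machinery were set beside the members. Fau encodes a ribosomal protein of the small subunit joined to a leader protein, and had a log2 fold change of 0.45 (SE 0.14; adjusted p = 0.233 by edgeR) in eWAT. Fau averaged 265 ± 28.5 CPM in IR 4A and 193 ± 38.4 CPM in WT libraries of eWAT. Of the 78 mitochondrial ribosomal protein genes, 53 were positive in eWAT with a median of 0.09, and 0 were called. The 37 initiation factors had a median of -0.01 in eWAT, the 40 ribosome biogenesis factors -0.04, and the 20 other mRNAs with a TOP tract 0.10, with 0 called in each. The 9 host transcripts of small nucleolar RNAs had a median of 0.22 in eWAT, where Zfas1 averaged 22.7 ± 3.11 CPM in IR 4A and 15.3 ± 1.90 CPM in WT libraries. The mTORC1 pathway and Myc list stood at -0.07 in eWAT and -0.01 in liver, again with 0 called. The 11 elongation and termination factors tested had medians of -0.04 in eWAT and -0.05 in liver, and the 13 RNA polymerase I genes tested 0.04 in eWAT and -0.07 in liver, with 0 called. In liver the other TOP mRNAs stood at 0.0013 and the host transcripts of small nucleolar RNAs at 0.27, with 0 called, and Rack1, a protein of the small subunit, had a log2 fold change of -0.12 (SE 0.07; adjusted p = 0.353 by edgeR). In liver the medians under TMM were -0.09 for initiation factors, -0.08 for biogenesis factors and -0.07 for mitochondrial ribosomal proteins, with 0 called. Each was below the 0.00 of all genes and close to the -0.08 of the members. At an unadjusted p under 0.05 by edgeR, 11 of 37, 5 of 40 and 19 of 78 of these genes were lower in liver, and 1, 2 and 1 higher. Of the members 12 of 81 were lower and 0 higher (background 9.48% lower and 8.6% higher). For the difference between tissues, 3 of 37 initiation factors and 4 of 78 mitochondrial ribosomal protein genes passed the test, all with the higher value in eWAT. So did 1 of the 20 other TOP mRNAs. Of the members 6 of 82 passed, where 0.735% of all genes did with a higher value in eWAT. The medians were 0.03 for initiation factors and 0.13 for mitochondrial ribosomal protein genes, beside the 0.36 of the members.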

How the data were processed

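Poly-A RNA of 20 libraries was read as paired 100-base reads from stranded libraries prepared together, per the labels' protocols. The deposited tables hold estimated counts per gene as whole numbers, made by the authors with Salmon 1.8.0 on GRCm39 and compared with DESeq2 1.32.0, per the submitters' processing notes; their settings are not given in the sources used here. The authors' deposited comparison tables give, per the file headers, log2 fold changes, their standard errors on the log2 scale, and raw and adjusted p-values, and were used only where named. Their sign is IR 4A over WT, as it matched the sign computed here for 11013 of 12421 liver genes and 15330 of 16476 eWAT genes. The column names gave tissue, genotype (Ctl was read as WT) and replicate number.

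Repeated identifiers were dropped (83 in liver, 208 in eWAT). Genes with low counts were left out by the filterByExpr function (edgeR 4.0.16, with a count of 10 and a total of 15 as minima), and libraries were scaled by TMM. Each comparison was fitted on the whole table with edgeR's two-sided quasi-likelihood test, and p-values were adjusted by Benjamini-Hochberg over all tested genes, with 0.05 as threshold (R 4.3.3). Genes in both tables entered 1 fit of all 20 libraries for the difference between tissues and for eWAT against liver. Log2 levels used a prior count of 2. Transcript lengths came from a GRCm38 annotation, as the median over a gene's protein-coding transcripts, or over all its transcripts where it has none. The common biological coefficient of variation, which limits the precision of single genes, was 0.512 in eWAT and 0.187 in liver. Methods were tested on simulated data.

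The members and gene lists were chosen with earlier results of these data known. Named members were, for each of the 3 genotype comparisons, the 5 with the smallest p; in each tissue the 4 highest and 4 lowest per kilobase; the 4 largest and 4 smallest differences of eWAT from liver in WT; and every paralog in the tables. Rps28, which passed the test of the difference between tissues, Rplp1 and Rps3a3 were named after their values were seen. One short list is not reported here. Each other process list has its count, with up to 2 members of smallest p considered. Alternatives were other scalings and filters, DESeq2 1.42.0, limma voom 3.58.1 with sample weights, a robust prior, a replicate block, a fit of all libraries, an adjusted p of 0.1 and leaving out each library. Library totals alone, the removal of liver WT 1 and WT 3, leaving out the 4 eWAT libraries with most testis transcripts, the epididymis marker covariate and the removal of a length trend were chosen after seeing the data.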

Additional observations from a re-analysis of the deposited data

Results flagged for a closer look

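In the liver WT libraries Rpl5 had 24.7 CPM in WT 4, where the next library had 16.5 CPM, and this library stood apart from the other 4. In the liver IR 4A libraries Rpl7l1 had 31.3 CPM in IR 4A 1, where the next had 26.2 CPM. The share of all counts on ribosomal protein genes was 0.711% in liver IR 4A 2, where the nearest of its group had 0.760%. These were 3 of 106 groups of 5 libraries looked at, and chance flags about 1 in 20 groups.

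For 6 members the IR 4A change differed between eWAT and liver by the test of that difference. As the eWAT minus the liver log2 fold change, the differences were 0.65 for Rpl38, 0.64 for Rpl41, 0.63 for Rpl37a, 0.60 for Rps28, 0.55 for Rpl28 and 0.50 for Rpl29.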

How the results depend on the processing

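The eWAT median log2 fold change of the members kept its sign in every fit, while the liver median reversed under library totals alone (0.078), as did the liver level (0.081). The liver ratio of shares, 1.06, was 0.99 without the 50 most abundant other genes. In liver DESeq2 called 5 lower and totals alone 1 higher, and leaving out a library gave 0 to 2 lower (2 without IR 4A 1). In eWAT DESeq2 called 30 higher and the fit of all 20 libraries 7, 8.54% of the members where 0.517% of all genes were. For the difference between tissues the number called was 36 by DESeq2, 14 by voom, 26 at an adjusted p under 0.1, 1 with totals alone and 0 to 21 when a library was left out. The 26 were 31.7% of the members, where 2.86% of all genes were called with a higher value in eWAT. For eWAT against liver, upper-quartile scaling gave 50 higher, 4 lower and a median of 0.39, totals alone 80, 1 and 1.62, and leaving out a library 17 to 36 higher, 8 to 17 lower and medians of -0.01 to 0.18. The values of all genes moved too. Under upper-quartile scaling 52.0% of all genes were higher and 26.6% lower, with a median of 0.46. Under totals these were 82.8%, 9.64% and 1.69.

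Single members that reversed were Rpl22l1 (0.12) and Rps27l (0.026) in liver and Rpl7l1 (0.17), Rps2 (0.64) and Rpl7a (1.00) between tissues, all under totals alone, and Rps4l in liver without WT 1 and WT 3 (-0.13). Leaving out a library put Rps4l at -0.036 to 0.39 and Rpl22l1 at -0.14 to 0.054 in liver (the sign turned without WT 1 or IR 4A 3 for Rps4l and without WT 3, WT 4 or IR 4A 4 for Rpl22l1), and Rpl10l at -1.28 to 0.66 and Rpl39l at -1.39 to 0.64 in eWAT. The cause was not tested.

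Deviations of IR 4A and WT libraries with the same replicate number correlated at -0.07 to 0.08 in liver and -0.73 to 0.67 in eWAT. Those of eWAT and liver libraries with the same number correlated at -0.10 to 0.04 in IR 4A and -0.06 to 0.00063 in WT. The labels tie no number to an animal, and these correlations cannot settle whether the replicate number pairs libraries. With the number as a replicate block, 0 members, and 0 of all genes, were called for the difference between tissues (median 0.36). In that fit 0 members were called in eWAT (median 0.30, 36 at an unadjusted p under 0.05) and 0 in liver (median -0.08). For eWAT against liver, 26 members were higher and 8 lower, 31.7% and 9.76%, where 42.0% and 33.1% of all genes were.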
